A study of Homo sapiens with 54 samples.

Results

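The genes described here are 8 amino acid transporters of the plasma membrane, SLC7A5, SLC3A2, SLC38A1, SLC38A2, SLC1A4, SLC1A5, SLC7A1 and SLC6A9. They were taken from the count table by these symbols and are 8 of its 58870 genes. RNA was measured in A549 cells, an established human lung cancer line, carrying either an insertless vector (empty-vector cells) or a vector for expression of USP18 (USP18 cells), the protease that removes the ubiquitin-like protein ISG15 from its targets. Cells of each kind were harvested after 48 hours with DMSO as vehicle, with CP2 at 2 or 5 µM, with CP14 at 1, 2.5 or 5 µM, or with CP18 at 1, 2.5 or 5 µM, which makes 18 groups of 3 libraries. The compounds are known here by these codes alone; the series is titled for β-lapachone, and the labels do not say which code stands for it. The 54 libraries held between 16673228 and 25609062 expected counts, with a median of 19701304. The labels and methods name 1 A549 line for each vector, so a difference between the vectors cannot be told apart from any other difference between these populations. The labels do not say how the 3 replicates of a group were cultured, so the p-values measure only the spread between these libraries.

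These transporters divide the supply of amino acids among them. SLC7A5 and SLC3A2 form a heterodimer in which SLC7A5 exchanges large neutral amino acids such as leucine and SLC3A2 is the heavy chain that brings it to the cell surface. SLC38A1 and SLC38A2 take up glutamine and other small neutral amino acids together with sodium, SLC1A4 and SLC1A5 exchange neutral amino acids, SLC7A1 carries arginine and lysine, and SLC6A9 carries glycine. Several of these genes are known targets of ATF4, a transcription factor whose translation rises when cells lack amino acids or are otherwise stressed, and cancer cells often depend on SLC7A5, SLC3A2 and SLC1A5.

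USP18 itself was measured first, as a check of the labels. In the vehicle libraries it stood at 10.6, 10.7 and 11.1 CPM (counts scaled to library size, with TMM factors between libraries) in empty-vector cells, against 1301, 1291 and 1327 CPM in USP18 cells, a log2 fold change of 6.92 (SE 0.0366, edgeR adjusted p = 1.3e-25). Over all treatments the 27 empty-vector libraries lay between 8.77 and 12.3 CPM and the 27 USP18 libraries between 947 and 2114 CPM, so that each library matched its vector label. The 5 epithelial markers KRT8, KRT18, KRT19, EPCAM and CDH1 summed to between 2990 and 11700 CPM, with KRT8 the most abundant at a mean of 4370 CPM. The 2 endothelial markers PECAM1 and CDH5 summed to at most 0.608 CPM, and the 3 fibroblast markers COL1A1, COL1A2 and PDGFRB to between 4.03 and 14.3 CPM, with COL1A1 the most abundant.

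Each of the 8 transporters passed the filter on low counts in each fit. SLC38A1 (chr12:46183063-46270017) and SLC38A2 (chr12:46358188-46372773) lie beside each other on the minus strand in GRCh38, and the other members lie on other chromosomes: SLC7A5 at chr16:87830023-87869507, SLC3A2 at chr11:62856004-62888880, SLC1A4 at chr2:64988477-65023865, SLC1A5 at chr19:46774883-46788594, SLC7A1 at chr13:29509414-29595688 and SLC6A9 at chr1:43991500-44031467. Divided by the length of the reference transcript in GENCODE, the levels in vehicle-treated empty-vector cells ran from 398 ± 24.9 CPM per kb (SD, n = 3) for SLC7A5 and 316 ± 11.5 for SLC3A2 through 131 ± 5.23 for SLC1A5, 86.4 ± 3.85 for SLC38A2, 44.4 ± 0.300 for SLC38A1 and 15.0 ± 0.242 for SLC7A1 down to 4.33 ± 0.140 for SLC1A4 and 2.07 ± 0.140 for SLC6A9. In USP18 cells the order was another: SLC38A2 led at 285 ± 4.43 CPM per kb, followed by SLC1A5 at 130 ± 2.48, SLC3A2 at 111 ± 0.804 and SLC7A5 at 96.7 ± 0.264. No neighbours in either order overlapped within 1 SD. SLC7A5 shares sequence with its pseudogenes SLC7A5P1 and SLC7A5P2, which held at most 11.0 and 1.97 expected counts in any library. How many reads of SLC7A5 are shared with them was not tested.

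**Figure D1:**
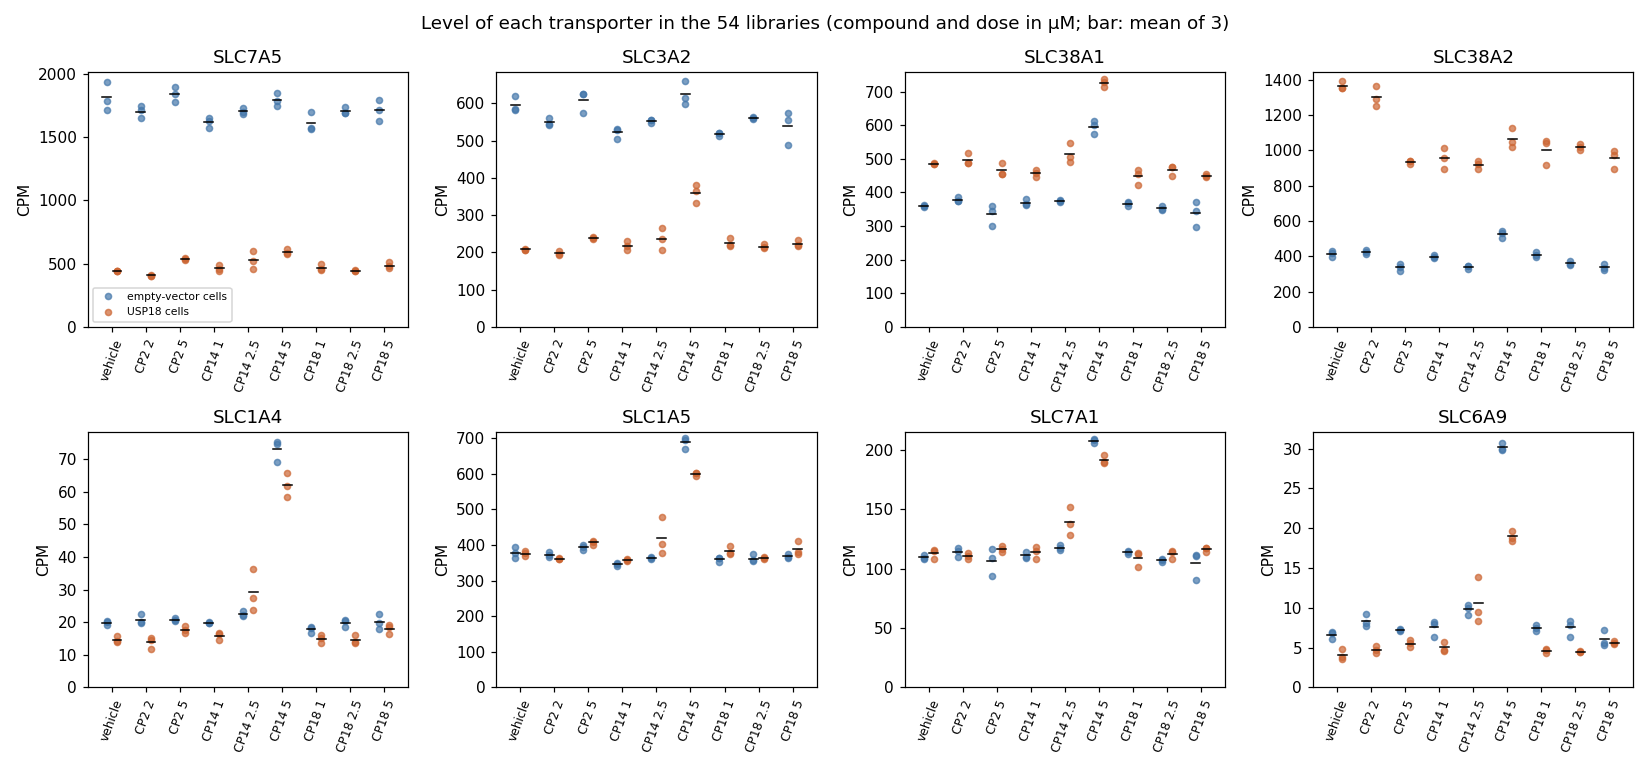
Level of each transporter in CPM (linear axis from 0) in the 54 libraries, by compound and dose in µM; points are libraries, blue for empty-vector and orange for USP18 cells, and the black bar is the mean of 3. SLC7A5, SLC3A2, SLC38A1 and SLC38A2 separate by vector in every treatment, and the group given 5 µM CP14 stands highest for SLC38A1, SLC1A4, SLC1A5, SLC7A1 and SLC6A9 in both kinds of cells. For SLC3A2 its mean is also the highest in both, in empty-vector cells by little (623.6 CPM, with 607.9 CPM at 5 µM CP2).

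The sequences around the start sites of the 8 genes were searched for TGATGNAA, letters of the amino acid response element that ATF4 is known to bind, because most members rose at 5 µM CP14. RefSeq (GRCh38.p14) lists 14 windows for the 8 genes, each from 250 bases before to 50 bases after a start site, read along the gene's strand. On either strand, 5 of the 14 windows held a match, in 5 of the 8 genes; of all 35116 windows listed, 3.62% held one, and of all 27305 genes 4.46% had such a window. SLC7A5, SLC38A2 and SLC6A9 had no match in their windows. SLC3A2, SLC38A1, SLC1A4 and SLC1A5 each had a match in 1 window and none in their other windows. A gene with more windows has more places for a match. At 5 µM CP14 SLC6A9 had the largest rise, and SLC7A5 passed in USP18 but not in empty-vector cells. SLC3A2, with a match, also passed at that dose in USP18 but not in empty-vector cells. Any link between a match and a response was not tested. The windows with a match follow, with the matched letters in capitals, and a match describes letters, not binding. The window of SLC1A4 lies at chr2:64989149-64989448 on the plus strand and that of SLC7A1 at chr13:29595639-29595938 on the minus strand. Those of SLC38A1, SLC1A5 and SLC3A2 lie at chr12:46266467-46266766 (minus), chr19:46784765-46785064 (minus) and chr11:62881449-62881748 (plus). In SLC1A4 and SLC3A2 the match is on the opposite strand, so the capitals show the reverse complement.
SLC1A4: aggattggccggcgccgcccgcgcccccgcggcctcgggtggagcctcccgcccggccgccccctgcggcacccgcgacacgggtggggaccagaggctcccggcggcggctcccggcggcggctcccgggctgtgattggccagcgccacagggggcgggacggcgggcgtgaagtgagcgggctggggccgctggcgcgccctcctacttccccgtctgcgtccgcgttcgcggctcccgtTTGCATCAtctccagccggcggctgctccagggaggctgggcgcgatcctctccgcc
SLC7A1: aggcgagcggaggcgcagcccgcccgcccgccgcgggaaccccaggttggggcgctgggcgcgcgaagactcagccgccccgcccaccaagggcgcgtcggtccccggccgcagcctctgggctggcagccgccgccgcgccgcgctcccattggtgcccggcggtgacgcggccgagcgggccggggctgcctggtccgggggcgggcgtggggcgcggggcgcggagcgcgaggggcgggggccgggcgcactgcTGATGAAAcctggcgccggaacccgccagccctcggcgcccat
SLC38A1: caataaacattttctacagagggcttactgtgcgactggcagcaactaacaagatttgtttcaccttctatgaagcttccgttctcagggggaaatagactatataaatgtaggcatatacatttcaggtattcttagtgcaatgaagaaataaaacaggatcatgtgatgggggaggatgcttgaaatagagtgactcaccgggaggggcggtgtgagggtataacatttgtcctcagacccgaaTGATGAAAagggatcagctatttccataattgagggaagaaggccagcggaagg
SLC1A5: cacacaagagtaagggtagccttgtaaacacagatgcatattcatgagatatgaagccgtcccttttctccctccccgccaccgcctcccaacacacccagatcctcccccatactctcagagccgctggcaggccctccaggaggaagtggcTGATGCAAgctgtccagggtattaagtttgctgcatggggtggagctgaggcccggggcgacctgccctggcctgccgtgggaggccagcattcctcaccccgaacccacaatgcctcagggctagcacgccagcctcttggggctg
SLC3A2: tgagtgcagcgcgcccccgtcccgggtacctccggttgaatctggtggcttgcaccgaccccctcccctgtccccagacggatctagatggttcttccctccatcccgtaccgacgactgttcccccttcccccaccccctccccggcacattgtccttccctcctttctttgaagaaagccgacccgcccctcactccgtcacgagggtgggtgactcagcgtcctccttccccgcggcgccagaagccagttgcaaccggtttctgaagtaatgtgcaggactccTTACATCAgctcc

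The comparison of the vehicle libraries asks what differed between the cells before any compound. SLC7A5 stood at 1785, 1716 and 1937 CPM in empty-vector cells and at 442, 441 and 439 CPM in USP18 cells. Its partner SLC3A2 stood at 586, 581 and 621 CPM against 208, 207 and 210.1 CPM. Both chains of the exchanger were lower in each USP18 library than in any empty-vector library. SLC38A2 went the other way, from 429.8, 419.5 and 394 CPM in empty-vector cells to 1356, 1353 and 1391 CPM in USP18 cells, again without overlap. In edgeR's quasi-likelihood test the log2 fold change of USP18 over empty-vector cells was −2.04 for SLC7A5 (SE 0.0351, adjusted p = 2.9e-18), −1.51 for SLC3A2 (SE 0.0280, adjusted p = 6.3e-18) and 1.72 for SLC38A2 (SE 0.0304, adjusted p = 3.7e-18). These 3 of 8 were called at an adjusted p under 0.05 with a log2 fold change beyond 1 in either direction, where 10.1% of the 15252 genes tested were called. At an adjusted p under 0.05 and any size, 6 of 8 passed, 2 higher and 4 lower, against 57.6% of all genes. The smaller differences were 0.44 for SLC38A1 (adjusted p = 2.2e-11), −0.43 for SLC1A4 (adjusted p = 5.3e-05) and −0.71 for SLC6A9 (adjusted p = 2.3e-04) on the log2 scale. SLC1A5 and SLC7A1 did not pass, at −0.01 (95% interval −0.07 to 0.05) and 0.04 (−0.03 to 0.11). The median of the 8 was −0.22, beside −0.0058 over all genes. In bulk RNA, fewer cells of a type and less RNA per cell cannot be told apart.

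**Figure D2:**
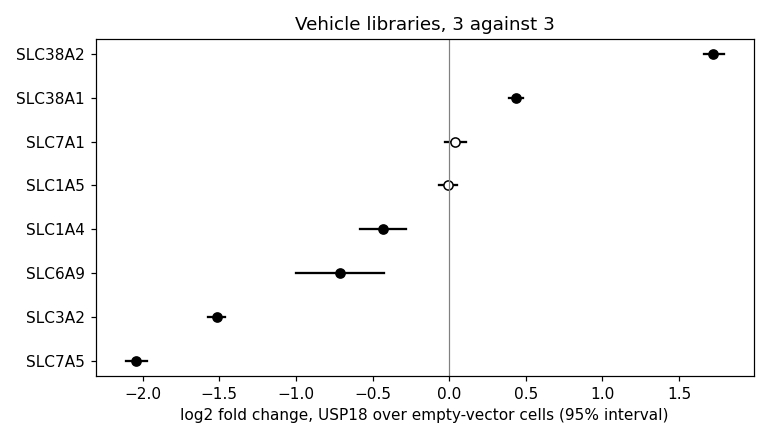
Log2 fold change of each transporter, USP18 over empty-vector cells, in the 6 vehicle libraries (3 against 3), with 95% intervals; filled points passed an adjusted p under 0.05. SLC7A5 and SLC3A2 lie at −2.04 and −1.51 and SLC38A2 at 1.72, while SLC1A5 and SLC7A1 lie near 0.

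The separation of these 3 genes by vector held across the treatments. SLC7A5 ran from 1566 to 1937 CPM (median 1711) in the 27 empty-vector libraries and from 403 to 614 CPM (median 459.7) in the 27 USP18 libraries. SLC3A2 ran from 489 to 661 CPM (median 557) against 193 to 381 CPM (median 219). SLC38A2 ran from 317 to 542 CPM (median 394) against 892 to 1391 CPM (median 1013). None of the 3 had an empty-vector library within the range of the USP18 libraries, whereas the other 5 members overlapped in these ranges. For SLC38A1 the overlap came from the 3 empty-vector libraries given 5 µM CP14, and within each treatment its empty-vector libraries lay below its USP18 libraries.

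CP14 at 5 µM was the treatment with the most members past the threshold. SLC6A9, the glycine carrier, rose in empty-vector cells from 6.82, 6.11 and 6.94 CPM with vehicle to 30.0, 30.7 and 29.9 CPM. SLC1A4 went from 19.1, 20.3 and 20.0 CPM to 69.2, 74.7 and 75.1 CPM. For both genes each treated library lay above each vehicle library. The log2 fold changes were 2.17 for SLC6A9 (SE 0.0872, edgeR adjusted p = 4.4e-15) and 1.88 for SLC1A4 (SE 0.0606, edgeR adjusted p = 1.2e-16). These 2 of 8 were called at a log2 fold change beyond 1, where 13.8% of 15947 genes were. SLC7A1 rose from 109, 109 and 112 CPM to 206, 208 and 209 CPM, and SLC1A5 from 378, 364 and 394 CPM to 671, 699 and 696 CPM. SLC38A1 rose from 362, 359 and 357 CPM to 612, 574 and 600.5 CPM. In these 3 carriers, too, the groups did not overlap, and their log2 fold changes were 0.91, 0.86 and 0.72 (largest edgeR adjusted p = 1.3e-14). SLC38A2 rose by 0.34 (edgeR adjusted p = 3.0e-07). The exchanger was the exception: SLC7A5 changed by −0.02 (95% interval −0.10 to 0.06) and SLC3A2 by 0.06 (−0.03 to 0.15), and neither passed. In all, 6 of 8 passed at any size, each of them higher, against 63.2% of all genes, and the median of the 8 was 0.79 beside 0.005 over all genes.

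In USP18 cells the same dose moved all 8 members past an adjusted p under 0.05, where 68.6% of all genes passed, and 2 were called beyond a log2 fold change of 1, where 18.0% were. SLC6A9 went from 4.77, 3.56 and 3.82 CPM to 18.8, 18.4 and 19.7 CPM, and SLC1A4 from 14.0, 14.3 and 15.7 CPM to 58.3, 61.8 and 65.7 CPM, both without overlap. Their log2 fold changes were 2.22 (SE 0.0985, edgeR adjusted p = 1.7e-14) and 2.07 (SE 0.0640, edgeR adjusted p = 4.0e-17). SLC3A2 rose by 0.78, SLC7A1 by 0.76, SLC1A5 by 0.67, SLC38A1 by 0.57 and SLC7A5 by 0.42 on the log2 scale (largest edgeR adjusted p = 7.3e-09). For the exchanger this meant SLC3A2 at 334, 364 and 381 CPM and SLC7A5 at 577.5, 587 and 614 CPM, above the vehicle libraries of the same cells and below those of empty-vector cells. SLC38A2 was the member that fell, from 1356, 1353 and 1391 CPM to 1125, 1049 and 1020 CPM, by 0.37 on the log2 scale (edgeR adjusted p = 5.1e-08). The median of the 8 was 0.71, beside 0.011 over all genes. USP18 itself was higher in these libraries, at 1964, 2114 and 2061 CPM, by 0.64 on the log2 scale (edgeR adjusted p = 3.9e-13). In empty-vector cells it was lower, at −0.18, and passed at the edge of the threshold (edgeR adjusted p = 0.050 after rounding). Its interaction was 0.82 (edgeR adjusted p = 4.1e-07). Its part in these changes was not tested.

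The test of the difference between the 2 kinds of cells, the interaction, passed for 6 of 8 members at 5 µM CP14, against 27.7% of all genes. The response of SLC3A2 was larger in USP18 cells by 0.72 and that of SLC7A5 by 0.44 on the log2 scale, and that of SLC38A2 was lower by −0.71 (largest edgeR adjusted p of these 3 = 4.7e-06). SLC1A5, SLC7A1 and SLC38A1 rose by less in USP18 cells, with differences of −0.19, −0.16 and −0.15 (largest edgeR adjusted p = 0.023). That of SLC7A1 did not pass without replicate 1 or 2 of vehicle in empty-vector cells (−0.15 either way), or replicate 2 or 3 of vehicle (−0.14 and −0.13) or 3 of the treatment (−0.14) in USP18 cells, at edgeR adjusted p from 0.052 to 0.087. In 1 fit of all 54 libraries it did not pass either, nor did that of SLC38A1 (edgeR adjusted p = 0.14 and 0.11). SLC1A4 and SLC6A9 did not pass, at 0.19 (95% interval 0.004 to 0.38, edgeR adjusted p = 0.13) and 0.05 (−0.24 to 0.33, edgeR adjusted p = 0.85). With 1 library left out the count ran from 5 to 7.

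**Figure D3:**
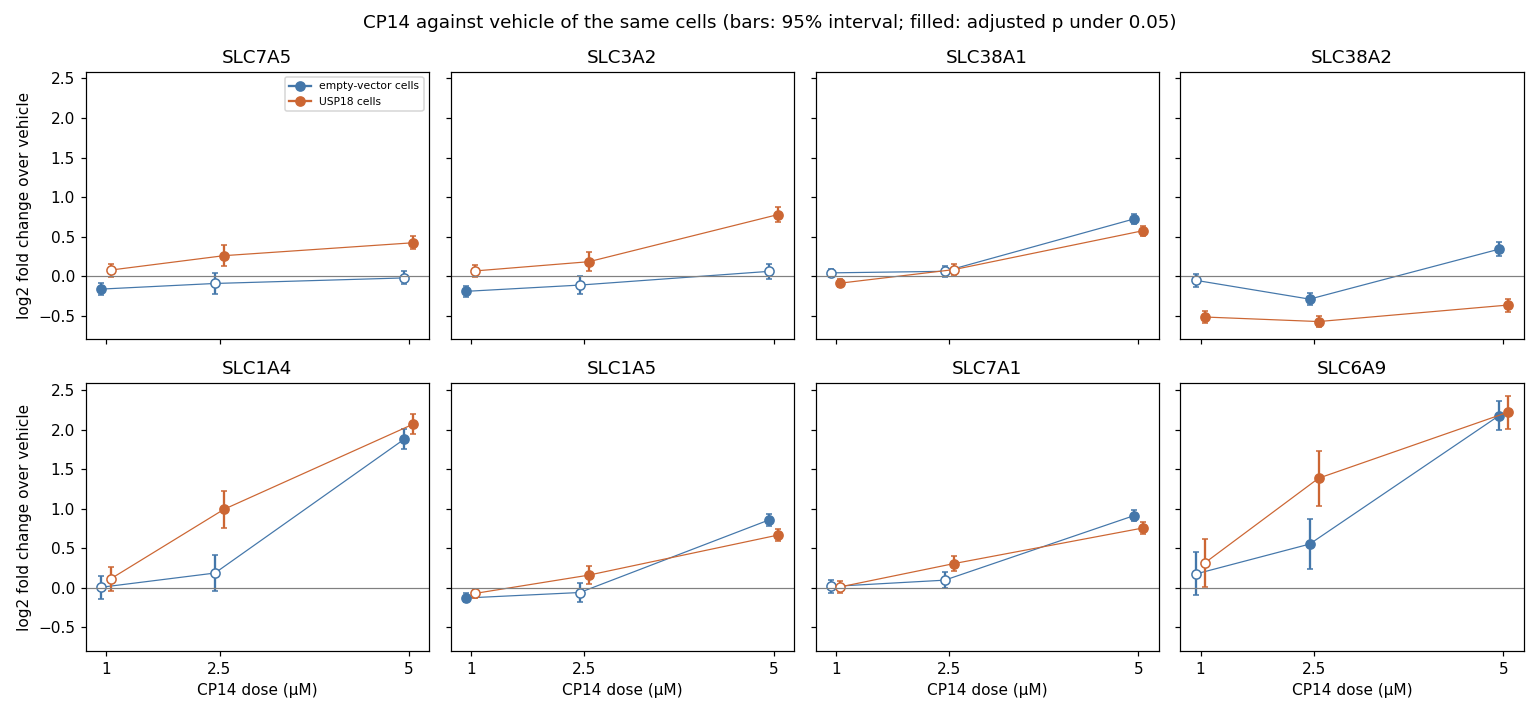
Log2 fold change of each transporter over vehicle of the same cells at 1, 2.5 and 5 µM CP14 (linear dose axis), blue for empty-vector and orange for USP18 cells; bars are 95% intervals and filled points passed an adjusted p under 0.05. At 5 µM SLC6A9 lies at 2.17 (blue) and 2.22 (orange), SLC1A4 at 1.88 and 2.07, and SLC38A2 lies at 0.34 and −0.37.

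At 2.5 µM CP14 7 of 8 members passed in USP18 cells, against 32.7% of all genes. In that group the library of replicate 1 stood above the others for several members: SLC1A4 was at 36.2, 27.4 and 23.6 CPM, SLC6A9 at 13.8, 9.45 and 8.37 CPM, and SLC1A5 at 477, 403 and 379 CPM. For SLC1A4 and SLC6A9 each of the 3 libraries was above each vehicle library, while SLC1A5 and SLC3A2 overlapped with vehicle: the lowest treated library of SLC1A5, at 379 CPM, lay within the vehicle range of 368 to 382 CPM, and that of SLC3A2, at 207.3 CPM, lay below the vehicle libraries at 207.4 to 210.1 CPM. SLC6A9 rose by 1.39 (SE 0.163, edgeR adjusted p = 3.3e-06), or by 1.14 without replicate 1 and at most 1.52 without another library, and was the 1 member of 8 called, where 1.99% of all genes were. SLC1A4 rose by 0.99 (SE 0.112, edgeR adjusted p = 1.9e-06), or by 0.80 without replicate 1. Without replicate 2 or 3 of the treatment or replicate 3 of vehicle it rose by 1.03, 1.12 and 1.05, so that 2 of 8 were called. SLC7A1 rose by 0.31 and SLC7A5 by 0.26, or by 0.24 and 0.16 without replicate 1 of the treatment and at most 0.36 and 0.35 without another library. SLC3A2 and SLC1A5 rose by 0.18 and 0.16, but without replicate 1 they stood at 0.09 (edgeR adjusted p = 0.12) and 0.06 (edgeR adjusted p = 0.24). They also failed to pass without replicate 1 or 2 of vehicle, as did SLC3A2 without replicate 2 of the treatment and SLC1A5 without replicate 3 of vehicle (SLC3A2 at 0.18 each time, SLC1A5 at 0.14 to 0.17). In DESeq2 neither passed (adjusted p = 0.068 and 0.12). SLC38A2 fell by 0.57 (edgeR adjusted p = 1.9e-09).

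In empty-vector cells 2.5 µM CP14 changed 2 of 8 members, against 15.1% of all genes: SLC6A9 rose by 0.55 (edgeR adjusted p = 0.020) and SLC38A2 fell by 0.29 (edgeR adjusted p = 2.6e-05). The call for SLC6A9 was lost without replicate 1 or 2 of vehicle or replicate 1 or 3 of the treatment (edgeR adjusted p = 0.058, 0.078, 0.071 and 0.060). The interaction at this dose passed for 5 of 8 members, against 8.00% of all genes, with SLC6A9 at 0.83, SLC1A4 at 0.81, SLC7A5 at 0.35 and SLC3A2 at 0.30 larger in USP18 cells and SLC38A2 at −0.28. Without replicate 1 of the treated USP18 cells these became 0.59, 0.62, 0.25, 0.20 and −0.29, and each still passed. The interaction of SLC6A9 did not pass in 6 of the 12 fits that leave out 1 library (replicates 1 and 3 of vehicle and 2 and 3 of the treatment in empty-vector cells, and replicates 2 and 3 of vehicle in USP18 cells), with values from 0.75 to 0.84. That of SLC3A2 did not pass in 8 of 12 (replicate 3 of vehicle and each treated library in empty-vector cells, each vehicle library and replicate 2 of the treatment in USP18 cells), with values from 0.26 to 0.30, nor in DESeq2 (adjusted p = 0.064). With 1 library left out the count ran from 3 to 7 for the interaction and from 1 to 3 in empty-vector cells.

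At 1 µM CP14 no member changed beyond 1 on the log2 scale, and the largest change was that of SLC38A2 in USP18 cells. In empty-vector cells 3 of 8 members passed, each lower, against 0.861% of all genes: SLC3A2 fell by 0.19, SLC7A5 by 0.16 and SLC1A5 by 0.13 on the log2 scale (largest edgeR adjusted p = 0.044). In USP18 cells 2 of 8 passed, against 15.3% of all genes, with SLC38A2 lower by −0.52 and SLC38A1 by −0.09 (edgeR adjusted p = 1.3e-07 and 0.019). The interaction passed for 4 of 8, against 5.79% of all genes: SLC3A2 at 0.26 and SLC7A5 at 0.24, SLC38A2 at −0.46 and SLC38A1 at −0.13 (largest edgeR adjusted p = 0.035). In 1 fit of all 54 libraries SLC3A2, SLC7A5 and SLC1A5 did not pass in empty-vector cells (edgeR adjusted p = 0.11, 0.22 and 0.25), and SLC38A2 was the 1 member of 8 to pass in USP18 cells and for the interaction. Without the filter on low counts SLC38A1 did not pass in USP18 cells or for the interaction. With the replicate number as a block SLC7A5 did not pass in empty-vector cells (edgeR adjusted p = 0.079). Several calls also rest on single libraries. In empty-vector cells SLC3A2 did not pass without replicate 2 of the treatment (−0.17), SLC1A5 without replicate 1 or 3 of vehicle or any treated library (−0.10 to −0.14), and SLC7A5 in 9 of 12 fits (−0.11 to −0.18), all but those without replicate 2 of vehicle in empty-vector cells or replicate 2 or 3 of the treatment in USP18 cells. In USP18 cells SLC38A1 did not pass without replicate 1 or 2 of vehicle (−0.09 each) or replicate 3 of the treatment (−0.08). The interaction of SLC7A5 did not pass without replicate 2 of the treatment in empty-vector cells (0.22), and that of SLC38A1 in 8 of 12 fits (−0.11 to −0.14), all but those without replicate 2 of vehicle or 1 or 3 of the treatment in empty-vector cells or 2 of the treatment in USP18 cells.

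SLC38A2 gave the pattern that recurred most across compounds. In USP18 cells it stood between 1252 and 1391 CPM in the 6 libraries given vehicle or 2 µM CP2, and between 892 and 1125 CPM in the 21 libraries of the other 7 treatments. The fold changes over vehicle were −0.52, −0.57 and −0.37 at 1, 2.5 and 5 µM CP14, −0.45, −0.42 and −0.53 at 1, 2.5 and 5 µM CP18, and −0.56 at 5 µM CP2 on the log2 scale (largest edgeR adjusted p = 5.4e-06). In USP18 cells USP18 itself also differed from vehicle, by −0.33 and −0.14 at 1 and 2.5 µM CP14, by −0.41, −0.30 and −0.24 at 1, 2.5 and 5 µM CP18 and by −0.09 at 2 µM CP2 (largest edgeR adjusted p = 0.047), and stood at −0.05 at 5 µM CP2, where it did not pass. Its interaction passed at 1 µM CP14 (−0.29) and 1 µM CP18 (−0.41), and its part in the values of SLC38A2 was not tested. Each of these comparisons shares the same 3 vehicle libraries. At 1 µM in USP18 cells 15.3% (CP14) and 15.7% (CP18) of all genes differed from vehicle, but 0.0191% differed between the 2 compounds. The libraries given vehicle or 2 µM CP2 carry the lowest numbers in the library names. Any part of the vehicle libraries or of library order in the values of SLC38A2 was not tested. In empty-vector cells SLC38A2 fell by 0.29 at 2.5 µM CP14, by 0.20 and 0.29 at 2.5 and 5 µM CP18 and by 0.29 at 5 µM CP2 (largest edgeR adjusted p = 0.0014). It rose at 5 µM CP14 as above. The interaction passed at each of these 8 treatments but 2 µM CP2 and 5 µM CP18, from −0.23 at 2.5 µM CP18 to −0.71 at 5 µM CP14. Where it did not pass it stood at −0.11 for 2 µM CP2 and −0.24 for 5 µM CP18 (edgeR adjusted p = 0.65 and 0.21).

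With CP18 in empty-vector cells 1 of 8 passed at each dose, against 0.368% of all genes at 1 µM, 5.96% at 2.5 µM and 8.40% at 5 µM; at 1 µM it was SLC3A2, lower by −0.20 (edgeR adjusted p = 0.012; without replicate 3 of the treatment −0.21, edgeR adjusted p = 0.059), and at the higher doses SLC38A2. In USP18 cells 3 of 8 passed at 1 µM, against 15.7% of all genes, namely SLC38A2, SLC38A1 at −0.12 and SLC3A2 at 0.11 (edgeR adjusted p = 0.019 and 0.039 for the last pair). Without replicate 3 of the treatment these stood at −0.07 (edgeR adjusted p = 0.097) and 0.07 (edgeR adjusted p = 0.21), and SLC3A2 did not pass without any 1 of the vehicle libraries either (0.10 to 0.11). SLC38A2 was the 1 member of 8 to pass at 2.5 µM, against 14.2%, and at 5 µM, against 10.7% of all genes. The interaction passed for 3 of 8 at 1 µM (7.19% of all genes), with SLC3A2 at 0.31, SLC7A5 at 0.26 and SLC38A2 at −0.43, for 1 of 8 at 2.5 µM (0.197%), with SLC38A2 at −0.23, and for 0 of 8 at 5 µM (0.268%). For that count of 0, 4 members had an unadjusted p under 0.05 in edgeR, DESeq2 passed 0 and the fit without the filter passed 2. The call for SLC38A2 at 2.5 µM was lost without any 1 of the vehicle libraries or replicate 3 of the treatment in USP18 cells, or replicate 1 or 3 of the treatment in empty-vector cells (−0.20 to −0.23, edgeR adjusted p from 0.054 to 0.13). In 1 fit of all 54 libraries the call at 2.5 µM was also lost (edgeR adjusted p = 0.30), as were the calls at 1 µM for SLC3A2 in both kinds of cells and for SLC38A1 in USP18 cells (edgeR adjusted p = 0.11, 0.20 and 0.11), and with RLE scaling SLC3A2 stood at an edgeR adjusted p of 0.051 in USP18 cells. Other counts rose. At 5 µM in USP18 cells 3 of 8 passed in 1 fit of all 54 libraries and 4 of 8 without the filter. In empty-vector cells DESeq2 passed 3 of 8 at 2.5 µM and 2 of 8 at 5 µM, as did the fit without the filter. At 1 µM there 2 of 8 passed without the filter and with the block. Leaving out 1 library also raised counts. At 5 µM in USP18 cells 5 of 8 passed without replicate 3 and 3 of 8 without replicate 2 of the treated empty-vector cells, which lend their spread to the fit, and 2 of 8 without replicate 1 of vehicle or 2 of the treatment in USP18 cells. In empty-vector cells 2 of 8 passed at 1 µM and at 2.5 µM without replicate 3 of the treated USP18 cells, at 2.5 µM without replicate 2 of vehicle, and at 5 µM without replicate 3 of the treatment, where the interaction passed for 1 of 8.

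CP2 at 5 µM changed 6 of 8 members in USP18 cells, against 19.0% of all genes. SLC7A5 rose from 442, 441 and 439 CPM to 529, 536 and 547 CPM, by 0.28 on the log2 scale (edgeR adjusted p = 7.7e-05). SLC6A9 rose by 0.43, SLC1A4 by 0.26, SLC3A2 by 0.19 and SLC1A5 by 0.11 (largest edgeR adjusted p = 0.035), and SLC38A2 fell as given above. The calls for SLC6A9, SLC1A4 and SLC1A5 rest on single USP18 libraries. SLC6A9 did not pass without replicate 2 or 3 of vehicle (0.34 and 0.38) or of the treatment (0.42 and 0.37), SLC1A4 without replicate 1 or 2 of vehicle (0.23 and 0.24) or 2 of the treatment (0.21), and SLC1A5 without any 1 of the 6 libraries (0.09 to 0.12). Without replicate 2 of vehicle, 3 of 8 members passed, and without replicate 2 of the treatment also 3 of 8. SLC6A9 did not pass in DESeq2 (adjusted p = 0.062) nor SLC1A4 in 1 fit of all 54 libraries (edgeR adjusted p = 0.056). In empty-vector cells 1 of 8 passed, SLC38A2, against 12.1% of all genes, and 2 of 8 without replicate 2 of the treatment. The interaction passed for SLC7A5 at 0.25 and SLC38A2 at −0.27, 2 of 8 against 0.920% of all genes (edgeR adjusted p = 0.036 and 0.026). The call for SLC7A5 was lost without any 1 of the 6 USP18 libraries (0.24 to 0.26), and that for SLC38A2 in 11 of 12 fits, all but that without replicate 3 of the treatment in empty-vector cells (−0.20 to −0.28). In 1 fit of all 54 libraries neither passed (edgeR adjusted p = 0.061 and 0.050), and with the replicate number as a block SLC7A5 did not (edgeR adjusted p = 0.054).

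At 2 µM CP2, a dose that no other compound shared, 1 of 8 members passed in empty-vector cells, against 1.84% of all genes: SLC3A2 was at 544, 561 and 541 CPM against 586, 581 and 621 CPM with vehicle, lower by −0.12 (edgeR adjusted p = 0.017). It did not pass without replicate 3 of vehicle (−0.09) or replicate 1 or 3 of the treatment (−0.11 each), nor in 1 fit of all 54 libraries (edgeR adjusted p = 0.47), and 2 of 8 members passed without replicate 2 of vehicle. In USP18 cells 0 of 8 passed in edgeR, against 1.13% of all genes, with 3 members at an unadjusted p under 0.05 and 0 passed by DESeq2, and 1 of 8 passed without replicate 3 of vehicle in empty-vector cells. The interaction also passed for 0 of 8, against 0.0569%, with 1 member at an unadjusted p under 0.05 and 0 by DESeq2.

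Direct comparison of the compounds at matched doses covered 10 pairs. At 5 µM in empty-vector cells CP14 gave higher levels than CP18 for 7 of 8 members, against 57.4% of all genes in either direction, and higher levels than CP2 for 6 of 8, against 57.2%. In USP18 cells it gave higher levels than either for 8 of 8, against 64.8% (CP18) and 65.6% (CP2) of all genes in either direction. Of the 16133 genes tested, 5168 passed there as higher with CP14 than with CP18 and 5254 as higher than with CP2. The same counts in empty-vector cells were 4554 and 4517. In empty-vector cells SLC6A9 differed most: 30.0, 30.7 and 29.9 CPM with CP14 against 5.63, 5.27 and 7.24 CPM with CP18, a log2 difference of 2.31 (SE 0.0947, edgeR adjusted p = 2.3e-15). For SLC1A4 the difference between CP14 and CP18 was 1.86 in empty-vector and 1.77 in USP18 cells (largest edgeR adjusted p = 2.9e-15), where that of SLC6A9 was 1.75 (edgeR adjusted p = 3.4e-13). Against CP2 in empty-vector cells SLC3A2 differed least, by 0.03, and neither it nor SLC7A5 (−0.04) passed. Against CP18 in empty-vector cells SLC7A5 differed least, by 0.06, and did not pass. In USP18 cells it differed by 0.28 (edgeR adjusted p = 1.5e-05). SLC38A2 differed there by 0.14 (edgeR adjusted p = 0.019), and did not pass without replicate 1 of CP14 (0.12, edgeR adjusted p = 0.055) or of CP18 (0.12, edgeR adjusted p = 0.069). In empty-vector cells SLC3A2 differed by 0.20 (edgeR adjusted p = 0.0045), or by 0.14 without replicate 2 of CP18.

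CP18 and CP2 at 5 µM differed in 0 of 8 members in either kind of cells, against 0.0310% of all genes in empty-vector and 0.0186% in USP18 cells. In edgeR 4 members in empty-vector and 1 in USP18 cells had an unadjusted p under 0.05, and DESeq2 passed 0 in each. The 95% intervals of the 8 differences lay between −0.47 and 0.14 in empty-vector cells and between −0.24 and 0.25 in USP18 cells.

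CP14 and CP18 at 1 µM differed in 0 of 8 members in empty-vector cells and in 0 of 8 in USP18 cells, against 0.0191% of all genes in each. An unadjusted p under 0.05 in edgeR was reached by 0 and by 1 member, DESeq2 passed 0 in each, and the intervals lay between −0.24 and 0.33 and between −0.17 and 0.40. At 2.5 µM the compounds differed in 0 of 8 members in empty-vector cells, against 1.80% of all genes, with 4 members at an unadjusted p under 0.05 in edgeR, 0 passed by DESeq2 and intervals between −0.16 and 0.69, and 1 of 8 passed without replicate 1 of CP14 in USP18 cells. In USP18 cells they differed in 7 of 8, against 28.2% of all genes. There SLC6A9 was higher with CP14 by 1.25 and SLC1A4 by 1.00 (edgeR adjusted p = 1.6e-05 and 6.1e-06), or by 1.01 and 0.81 without replicate 1 of CP14. SLC7A5 was higher by 0.25 and SLC1A5 by 0.21, or by 0.15 and 0.11 without that library, and SLC38A2 was lower with CP14 by −0.15 (edgeR adjusted p = 0.0017).

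**Figure D4:**
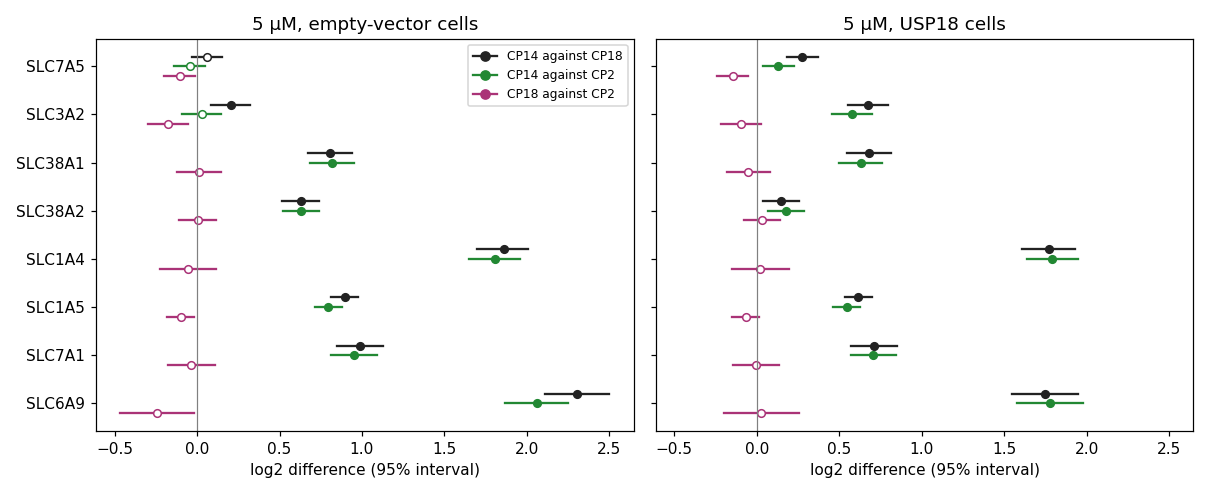
Log2 difference between compounds at 5 µM for each transporter, with 95% intervals, in empty-vector cells (left) and USP18 cells (right); black is CP14 against CP18, green CP14 against CP2 and magenta CP18 against CP2, and filled points passed an adjusted p under 0.05. CP14 exceeds CP18 for 7 of 8 members in empty-vector and 8 of 8 in USP18 cells, and no magenta point is filled.

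Other genes of amino acid supply were read at 5 µM CP14 for comparison with the 8 transporters. Of 24 other plasma membrane amino acid transporters 14 were tested, and in empty-vector cells 3 rose and 6 fell, where 63.2% of all genes passed in either direction, with a median log2 fold change of −0.20 beside 0.005 over all genes. SLC6A15, a carrier of branched-chain amino acids and proline, rose by 1.56 and SLC43A1, a carrier of large neutral amino acids, by 1.26, while SLC7A7, a light chain that pairs with SLC3A2 to export cationic amino acids, fell by 1.28 and SLC16A10, a carrier of aromatic amino acids, fell by 1.21 (largest edgeR adjusted p = 0.0021). In USP18 cells 2 rose and 10 fell, where 68.6% of all genes passed, with a median of −0.37 beside 0.011, and these genes stood at 1.83, 1.12, −1.18 and −0.68 in the same order. The interaction passed for 6 of the 14, each negative, where 27.7% of all genes passed.

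Of 24 genes of the ATF4 pathway outside amino acid transport, 23 rose and 0 fell in empty-vector cells, with a median of 1.42, and 23 rose and 0 fell in USP18 cells, with a median of 1.46, beside 0.005 and 0.011 over all genes, of which 63.2% and 68.6% passed in either direction. STC2, a secreted glycoprotein, rose by 3.21 and 3.45 in the 2 kinds of cells, ATF3 by 2.86 and 3.53, CHAC1, which degrades glutathione, by 2.81 and 1.67, and DDIT3 by 2.38 and 3.60 (largest edgeR adjusted p = 6.9e-12). The interaction of DDIT3 was 1.21 and that of CHAC1 −1.14 (edgeR adjusted p = 5.6e-07 and 1.8e-05). Of the 24 genes, 8 had a positive and 8 a negative interaction that passed, where 27.7% of all genes passed.

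Of the 20 cytosolic aminoacyl-tRNA synthetases 13 rose and 5 fell in empty-vector cells (median 0.42), and 11 rose and 8 fell in USP18 cells (median 0.16), where 63.2% and 68.6% of all genes passed. WARS rose by 1.57 and 0.91, GARS by 1.40 and 1.01, MARS by 1.38 and 0.90 and CARS by 1.34 and 1.01 (largest edgeR adjusted p = 5.4e-15). The interaction passed for 14 of the 20 synthetases, each negative, where 27.7% of all genes passed. Of 24 genes of amino acid sensing, 23 were in the table and tested, and 7 rose and 4 fell in empty-vector cells (median −0.01), 6 rose and 8 fell in USP18 cells (median −0.02), where 63.2% and 68.6% of all genes passed. SESN3 fell by 0.92 in empty-vector and by 1.11 in USP18 cells. EIF2AK1 fell by 0.62 and 0.86, and RRAGD stood at 0.46 and 0.85 (largest edgeR adjusted p = 7.0e-04). CASTOR1, an arginine sensor, rose by 0.75 in empty-vector cells and stood at −0.18 in USP18 cells (edgeR adjusted p = 1.7e-06 and 0.14), with an interaction of −0.93 (edgeR adjusted p = 6.1e-05). Of the 23 sensing genes, 6 had a positive and 5 a negative interaction that passed, beside the same 27.7%.

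With vehicle alone the same lists differed between the vectors as follows. Of the other transporters 8 of 14 were higher and 4 lower in USP18 cells (median 0.34), of the ATF4 list 7 of 24 were higher and 12 lower (median −0.10), of the synthetases 6 of 20 were higher and 8 lower (median −0.06), and of the sensing genes 3 of 23 were higher and 11 lower (median −0.13), beside −0.0058 over all genes, of which 57.6% passed in either direction. SLC7A7, also a light chain that pairs with SLC3A2, was lower in USP18 cells by −1.69 (edgeR adjusted p = 1.4e-16), and SLC43A1 was higher by 0.66 (edgeR adjusted p = 1.5e-04).

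Likeness between members is given as Pearson's r of the mean log2 CPM over the 18 groups. SLC7A5 and SLC3A2 had an r of 0.986, and each ran against SLC38A2, at −0.967 and −0.934. SLC1A4 and SLC6A9 had an r of 0.969, SLC1A5 and SLC7A1 0.958, and SLC1A4 and SLC7A1 0.933. These are descriptions over 18 groups that fall apart by vector and by 5 µM CP14, and they carry no test. The genes outside the list with the highest r over the same 18 groups were KDM5D (0.996), COL18A1 (0.994) and RPS4Y1 (0.994) for SLC7A5, and MIR193BHG (0.994), DLC1 (0.993) and MGST1 (0.991) for SLC3A2. For SLC38A2 they were PTPN3 (0.991), PLCB1 (0.986) and SVIL (0.985), and for SLC38A1 CDC42SE2 (0.992), RNF41 (0.982) and BCAR3 (0.982). For SLC1A4 they were GFPT2 (0.994), MRAS (0.987) and PAQR5 (0.985), for SLC6A9 IL20RB (0.985), PPP4R3B (0.978) and RHBDD1 (0.976), for SLC1A5 AL365181.3 (0.977), SQSTM1 (0.974) and VRK2 (0.973), and for SLC7A1 TCEA1 (0.989), KHNYN (0.984) and SMOX (0.983). Ranked by Spearman's rho, 1 of these 24 genes, GFPT2, was again among the 3 most alike.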

How the data were processed

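The authors deposited a table of expected counts per gene, 1 column for each of 54 libraries. Per the submitters' processing notes Cutadapt 1.18 trimmed the reads, STAR 2.7.0f aligned them to hg38 and RSEM 1.3.1 gave the counts; the methods name another RSEM version and a mouse annotation for it, while the identifiers are human. The labels describe poly(A) capture and the methods ribosomal depletion. Here the expected counts were rounded and tested with edgeR 4.0.16 (R 4.3.3): TMM factors, the filterByExpr rule (min.count 10, min.total.count 15), the quasi-likelihood test and Benjamini-Hochberg adjustment over all genes tested. Each treatment was fitted with vehicle in both kinds of cells (12 libraries), the vectors on 6 vehicle libraries, and compounds at a matched dose on 12 or 18 libraries, with group means and no replicate term. Passing means an adjusted p under 0.05; called means also a log2 fold change beyond 1, the thresholds of the methods. Levels in CPM use TMM over all 54 libraries. No pair of replicates agreed within sampling noise (chi-square per gene 1.80 to 11.1 over 54 pairs). The methods name DESeq2, which was run as an alternative (1.42.0) beside RLE scaling, every gene with a count, a block for the replicate number, a single fit of the 54 libraries and fits that leave out 1 library. The fitting function was tested on simulated data. The members and lists were chosen with earlier results of these data known. Beside the members and USP18, the text names the 4 genes of each list that changed most among those passing with 5 µM CP14 against vehicle (empty vector), and for each member the 3 genes most like it in Pearson r. Gene positions and transcript lengths are from GENCODE on GRCh38, of a later release than the counts.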

Additional observations from a re-analysis of the deposited data

Results flagged for a closer look

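A difference between the 2 kinds of cells in the response to a treatment, by the interaction term in edgeR at an adjusted p under 0.05, was found in 21 of 64 tests of a member, 11 with a positive difference (USP18 minus empty-vector cells) and 10 with a negative one. Over all genes it passed for 5.79%, 8.00% and 27.7% at 1, 2.5 and 5 µM CP14, for 7.19%, 0.197% and 0.268% at 1, 2.5 and 5 µM CP18, and for 0.0569% and 0.920% at 2 and 5 µM CP2; 6 of the 21 were at 5 µM CP14. The values are differences of log2 fold changes, and the 8 treatments share their vehicle libraries.

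SLC38A2 passed at 6 of 8 treatments, each time negative: −0.46, −0.28 and −0.71 at 1, 2.5 and 5 µM CP14, −0.43 and −0.23 at 1 and 2.5 µM CP18 and −0.27 at 5 µM CP2. SLC7A5 passed at 5 of 8, each time positive: 0.24, 0.35 and 0.44 at 1, 2.5 and 5 µM CP14, 0.26 at 1 µM CP18 and 0.25 at 5 µM CP2. SLC3A2 passed at 4 of 8, each time positive: 0.26, 0.30 and 0.72 at 1, 2.5 and 5 µM CP14 and 0.31 at 1 µM CP18. SLC38A1 passed at 1 and 5 µM CP14, at −0.13 and −0.15. SLC1A4 and SLC6A9 passed at 2.5 µM CP14, at 0.81 and 0.83, and SLC1A5 and SLC7A1 at 5 µM CP14, at −0.19 and −0.16.

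Several of these were lost in fits that leave out 1 library. They were SLC38A2 at 5 µM CP2 (11 of 12 fits) and 2.5 µM CP18 (6), SLC7A5 at 5 µM CP2 (6) and 1 µM CP14 (1), SLC3A2 and SLC6A9 at 2.5 µM CP14 (8 and 6), SLC38A1 at 1 µM CP14 (8) and SLC7A1 at 5 µM CP14 (5). In 1 fit of all 54 libraries those of SLC38A2 and SLC7A5 at 5 µM CP2, SLC38A2 at 2.5 µM CP18, SLC7A5, SLC3A2 and SLC38A1 at 1 µM CP14, and SLC38A1 and SLC7A1 at 5 µM CP14 did not pass.

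With vehicle alone SLC38A2, SLC7A5 and SLC3A2 differed between the vectors by 1.72, −2.04 and −1.51.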

How the results depend on the processing

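Of the 107 log2 fold changes and differences of members that passed, 0 changed sign under the alternatives run; one that did not pass was compared only by its side of the threshold. With RLE size factors 106 of them still passed, without the filter 105, with DESeq2 103 and in 1 fit of all 54 libraries 90. Leaving out 1 library at a time, 23 of the 107 were lost at least once. Of the others, 21 of 173 came to pass at least once when 1 library was left out, 19 without the filter, 3 with the block, 5 of 153 with DESeq2, 3 in 1 fit and 1 with RLE. The cause was not tested. The counts of passing members at 5 µM CP14, with vehicle alone and between compounds at 5 µM moved by at most 1.5 times, the most being from 6 to 4 for the interaction at 5 µM CP14 in 1 fit.

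The replicate numbers do not pair the libraries: over 27 comparisons the correlations of same-numbered libraries lay between −0.12 and 0.11, in 0 comparisons were all 3 above 0.1, and 18 of 54 libraries correlated best with their own number. With the number as a block 105 of 107 still passed, and 3 of the 173 others came to pass. The 2 losses were SLC7A5 for the interaction at 5 µM CP2 and SLC7A5 at 1 µM CP14 in empty-vector cells. Among the counts of members, that for the interaction at 5 µM CP2 went from 2 to 1. That for 1 µM CP18 in empty-vector cells went from 1 to 2.

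In 1 fit of all libraries the count fell to 0 for 2 µM CP2 (from 1), 1 µM CP14 (from 3) and 1 µM CP18 (from 1) in empty-vector cells and for the interactions at 5 µM CP2 (from 2) and 2.5 µM CP18 (from 1). It fell to 1 for 1 µM CP14 (from 2) and 1 µM CP18 (from 3) in USP18 cells and for the interaction at 1 µM CP14 (from 4), and rose from 1 to 3 for 5 µM CP18 in USP18 cells. Without the filter the count rose from 1 to 2 for 2 µM CP2, 1 µM CP18 and 5 µM CP18 and from 1 to 3 for 2.5 µM CP18 in empty-vector cells, from 0 to 1 for 2 µM CP2 and from 1 to 4 for 5 µM CP18 in USP18 cells, from 0 to 2 for the interaction at 5 µM CP18, and from 0 to 1 for CP14 against CP18 at 2.5 µM in empty-vector cells. DESeq2 passed 3 in place of 1 for 2.5 µM CP18 and 2 in place of 1 for 5 µM CP18 in empty-vector cells.

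Leaving out single libraries, the count in empty-vector cells ran from 0 to 2 for 2 µM CP2, 1 to 2 for 5 µM CP2, 0 to 3 for 1 µM CP14, 1 to 3 for 2.5 µM CP14, 0 to 2 for 1 µM CP18 and 1 to 2 for 2.5 and 5 µM CP18. In USP18 cells it ran from 0 to 1 for 2 µM CP2, 3 to 6 for 5 µM CP2, 1 to 2 for 1 µM CP14, 1 to 3 for 1 µM CP18 and 1 to 5 for 5 µM CP18. For the interaction it ran from 0 to 3 at 5 µM CP2, 2 to 4 at 1 µM CP14, 3 to 7 at 2.5 µM CP14, 0 to 1 at 2.5 µM CP18 and 0 to 1 at 5 µM CP18, and for CP14 against CP18 at 2.5 µM in empty-vector cells from 0 to 1.

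The count of all genes passing moved by more than 1.5 times as follows. CP2 2 µM (empty vector) went from 291 to 524 without the filter, 94 in 1 fit, and CP2 2 µM (USP18) went from 179 to 369 without the filter, 73 in 1 fit. CP2 2 µM (interaction) went from 9 to 156 without the filter, 32 with DESeq2, 1 in 1 fit, and CP2 5 µM (interaction) went from 145 to 438 without the filter. CP14 1 µM (empty vector) went from 136 to 501 without the filter, 206 with DESeq2, 34 in 1 fit, and CP18 1 µM (empty vector) went from 58 to 414 without the filter, 97 with the block, 110 with DESeq2, 0 in 1 fit. CP18 2.5 µM (interaction) went from 31 to 203 without the filter, 62 with DESeq2, 5 in 1 fit, and CP18 5 µM (interaction) went from 42 to 209 without the filter, 98 with DESeq2, 121 in 1 fit. CP14 against CP18 1 µM (empty vector) went from 3 to 172 without the filter, 21 with DESeq2, and CP14 against CP18 1 µM (USP18) went from 3 to 227 without the filter, 6 with the block, 49 with DESeq2, 13 in 1 fit. CP14 against CP18 2.5 µM (empty vector) went from 283 to 705 without the filter, and CP18 against CP2 5 µM (empty vector) went from 5 to 116 without the filter, 8 with DESeq2, 11 in 1 fit. CP18 against CP2 5 µM (USP18) went from 3 to 118 without the filter, 18 with DESeq2, 14 in 1 fit, and CP14 1 µM (interaction) went from 914 to 313 in 1 fit. CP18 1 µM (interaction) went from 1134 to 733 in 1 fit, and CP18 2.5 µM (empty vector) went from 939 to 530 in 1 fit. CP18 5 µM (empty vector) went from 1315 to 2188 in 1 fit, and CP18 5 µM (USP18) went from 1680 to 2569 in 1 fit. With RLE 25% of the genes passing the interaction at 2.5 µM CP18 were higher, against 35.5%. The share higher moved by over 10 points also in 8 of 35 comparisons without the filter, 2 with the block, 5 with DESeq2 and 6 in 1 fit.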
